A study of Mus musculus with 9 samples.

Results

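In cultured sclerotome cells Runx1 RNA was up-regulated by both BMP4 (1.85-fold) and TGF-β1 (2.44-fold) by its most variable probe set (3 arrays per group). Of its 6 probe sets, 1 was called with BMP4 and 3 with TGF-β1. With the 6 averaged, the rise with TGF-β1 was called and that with BMP4 was not. Sp7 (1.73-fold), Alpl (2.04-fold) and 2 of 5 probe sets of Mef2c (1.28- and 1.31-fold) were lower with TGF-β1 than with BMP4, and each of these last calls was lost when certain single arrays were left out. The genes described here are the Runx transcription factors (Runx1, Runx2, Runx3), the transcription factors Mef2c and Sp7, and the cartilage hypertrophy and bone genes Pth1r, Col10a1, Alpl, Spp1 and Panx3. Members were all probe sets (groups of short probes against 1 transcript) that the array's probe-to-gene table ties to 1 of these 10 symbols and to no other. That table gave 20 probe sets of 8 genes out of 45037 probe sets and 18193 named genes on the array: 6 for Runx1, 5 for Mef2c, 3 for Panx3, 2 for Runx3 and 1 each for Sp7, Pth1r, Col10a1 and Alpl. Runx2 and Spp1 had 0 probe sets under this rule and were not analysed here.

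The cells came from the sclerotome, the ventral part of the somite that builds the vertebrae and the discs between them, of wild type E11.5 mouse embryos, with the notochord removed. They were plated as dense drops (micromass cultures), and all cultures shared a medium with serum, ascorbic acid and β-glycerolphosphate, additives that are widely used to favor matrix and mineral formation. The 3 groups were untreated cultures, cultures with 50 ng/ml BMP4 and cultures with 5 ng/ml TGF-β1, each treated for 8 hours, with 3 arrays per group from separately repeated experiments. The sample records start treatment after a night in culture, the culture methods soon after attachment, and which applies to these arrays is not known. Mouse strain, sex and the number of pooled embryos are not given in the sources used here.

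Runx factors bind DNA together with the partner Cbfb and turn lineage genes on or off. In the skeleton, Runx2 and Runx3 drive cartilage cells to enlarge (hypertrophy), Runx2 and then Sp7 (osterix) commit cells to bone, and Runx1 is active in early mesenchymal condensations. Mef2c acts beside them and is held in check by class IIa histone deacetylases. Col10a1 encodes the collagen of hypertrophic cartilage, Pth1r the receptor that delays hypertrophy, Alpl the phosphatase needed for mineral deposition, and Panx3 a channel protein of hypertrophic cartilage cells and osteoblasts.

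Runx genes carry RUNX binding motifs in their own distal promoters, so the RefSeq promoter windows (GRCm38.p6, 250 bases before to 50 after a start site) are shown for both starts of Runx1, the member with the largest change, and for the distal start of Runx3, its paralog. They read 5′ to 3′ on the gene's strand, and capitals mark TGTGGT or TGTGGC on either strand.
Runx1 distal, chr16:92826025-92826324, minus strand: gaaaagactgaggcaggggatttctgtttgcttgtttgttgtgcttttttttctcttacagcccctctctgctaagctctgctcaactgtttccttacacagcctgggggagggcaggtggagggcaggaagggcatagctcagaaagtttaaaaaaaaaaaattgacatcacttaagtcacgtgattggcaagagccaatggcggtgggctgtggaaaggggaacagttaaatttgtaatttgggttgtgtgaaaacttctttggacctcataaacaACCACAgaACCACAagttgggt
Runx1 proximal, chr16:92697280-92697579, minus strand: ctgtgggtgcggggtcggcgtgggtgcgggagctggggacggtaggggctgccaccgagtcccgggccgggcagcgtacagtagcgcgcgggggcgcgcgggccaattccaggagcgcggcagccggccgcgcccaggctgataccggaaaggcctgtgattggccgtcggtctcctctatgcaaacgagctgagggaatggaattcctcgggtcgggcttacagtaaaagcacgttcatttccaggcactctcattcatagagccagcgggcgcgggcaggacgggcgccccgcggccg
Runx3 distal, chr4:135120395-135120694, plus strand: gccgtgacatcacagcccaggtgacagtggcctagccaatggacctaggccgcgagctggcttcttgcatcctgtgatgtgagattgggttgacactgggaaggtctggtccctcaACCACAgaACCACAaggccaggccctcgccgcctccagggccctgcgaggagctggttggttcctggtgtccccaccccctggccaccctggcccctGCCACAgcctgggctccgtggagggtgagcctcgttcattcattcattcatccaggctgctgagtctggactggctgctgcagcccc
The distal Runx1 window held 2 matches and the distal Runx3 window 3. Of 32851 RefSeq promoter windows, 6.54% held 2 or more and 32.4% held at least 1. The distal windows were shown because such motifs are known there, so their matches are a description and no test of enrichment. Both distal windows contained the 18-base stretch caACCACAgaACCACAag, with 2 of the matches. The proximal Runx1 window and the other Runx3 window had 0 matches. Windows were found for 6 of the 8 genes (13 windows), and of the other genes only Mef2c had matches, 1 in each of 2 of its 3 windows. A match of letters is no evidence of binding, and the sources used here do not say which start the transcripts on the arrays came from.

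The deposited values were log2 signals in which each probe set had been set to a median of 0 over the 9 arrays. Values below are therefore log2 units above or below that median, levels of different genes cannot be compared, and signal over background could not be judged. The presence of the sclerotome markers could not be checked for the same reason. A difference of 1 is a 2-fold change. Differences are given ± SE from limma, a linear model fitted to every probe set with pooled variances, and a probe set was called changed when its p-value, adjusted by Benjamini-Hochberg over the 45037 probe sets, was under 0.05. The replicate number was not used in this main fit. A fit that also held a term for each replicate number (a block) was an alternative. In RNA from whole cultures, fewer cells that express a gene and less RNA per cell cannot be told apart. The arrays numbered 2 stood apart together in all 3 groups: 6 member probe sets (5 of Runx1 and that of Pth1r) were lowest on array 2 in every group, and 3 probe sets of Mef2c were highest.

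With BMP4, 1 of the 20 probe sets was called higher and 0 lower by limma (5 and 0 at an unadjusted p under 0.05), whereas 2.31% of all probe sets were called higher and 3.13% lower. The called probe set was of Runx1. In 4 of the 20 the 3 BMP4 arrays all lay above the 3 untreated arrays, and in 0 all below (background 9.71% and 10.3%). Of these 4, 2 were of Runx1. The median difference of the members was 0.11, and that of all probe sets was 0.0012. Regardless of sign, the median size was 0.11 for the members and 0.10 for all probe sets, so that in size they barely stood out with BMP4. In direction, 18 of the 20 differences were above 0 and 2 below, though probe sets of the same gene are not separate genes.

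With TGF-β1, 3 of the 20 probe sets were called higher and 1 lower, against 1.83% and 2.6% of all probe sets. The 3 were of Runx1 and the 1 of Mef2c. The TGF-β1 arrays lay wholly above the untreated arrays in 5 and wholly below in 5 (background 9.87% and 12%). Those above were 4 of Runx1 and that of Col10a1, and those below 4 of Mef2c and that of Pth1r. These counts thus rest largely on Runx1 and Mef2c, whose probe sets are not separate genes. The median size of the difference was 0.31 for the members and 0.11 for all probe sets.

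Between the factors, 0 of the 20 were called higher with TGF-β1 than with BMP4 by limma (4 at an unadjusted p under 0.05) and 4 were called lower, against 3.41% and 3.49% of all probe sets. The 4 belonged to Mef2c (2), Sp7 and Alpl. The arrays were apart in 2 probe sets that were higher and 8 that were lower with TGF-β1 (background 12% and 13.5%). Of the 8, 4 were of Mef2c. The comparisons with untreated cultures share the same 3 untreated arrays, and this one shares its arrays with both.

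**Figure D1:**
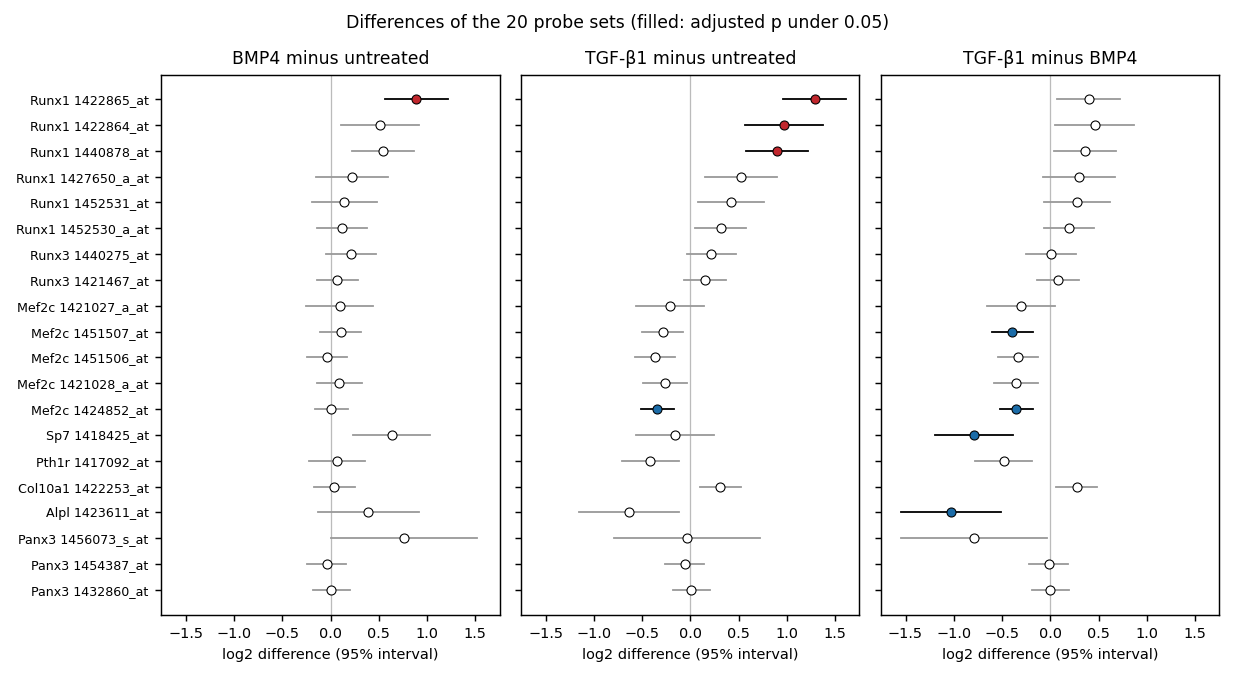
Log2 difference of each of the 20 probe sets in the 3 comparisons, with its 95% interval (horizontal lines). Filled points passed the adjusted p of 0.05, red for higher and blue for lower; all 6 Runx1 probe sets lie right of 0 in each panel, and the 5 of Mef2c lie left of 0 in both TGF-β1 panels.

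Runx1, best known as a blood cell factor and also active in early skeletal condensations, gave the largest change among the members. Its most variable probe set, 1422865_at, read -1.01, -1.11 and -0.77 in the untreated arrays, 0, -0.35 and 0.12 with BMP4, and 0.46, 0.10 and 0.40 with TGF-β1. The untreated arrays were lowest and did not overlap either treated group, while BMP4 replicate 3 was slightly above TGF-β1 replicate 2. Runx1 was up-regulated by BMP4 by 0.89 ± 0.15 (1.85-fold, 95% interval 0.57 to 1.21, limma adjusted p = 0.00639). TGF-β1 up-regulated it by 1.28 ± 0.15 (2.44-fold, 0.96 to 1.61, limma adjusted p = 0.00139). Both calls held with any of the 9 arrays left out. The difference between the factors, 0.39 ± 0.15 higher with TGF-β1 (0.07 to 0.72), was not called (limma adjusted p = 0.155).

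The other Runx1 probe sets lay on the same side of 0 in every comparison, with smaller differences from untreated cultures. Probe set 1440878_at read -0.30, -0.72 and -0.45 in untreated arrays, 0, -0.07 and 0.24 with BMP4, and 0.47, 0.15 and 0.61 with TGF-β1. It rose by 0.90 ± 0.14 with TGF-β1 (limma adjusted p = 0.00837), whereas its difference with BMP4, 0.54 ± 0.14, was not called (limma adjusted p = 0.0609) although the arrays did not overlap. Probe set 1422864_at read -0.46, -0.89 and -0.47 untreated, 0.18, -0.47 and 0 with BMP4, and 0.55, 0.12 and 0.42 with TGF-β1. It rose by 0.97 ± 0.18 with TGF-β1 (limma adjusted p = 0.0173). That last call was lost without untreated replicate 2, TGF-β1 replicate 1 or TGF-β1 replicate 3 (limma adjusted p = 0.056, 0.073 and 0.072). The remaining 3 probe sets (1427650_a_at, 1452531_at and 1452530_a_at) differed from untreated by 0.52, 0.42 and 0.31 with TGF-β1 and by 0.22, 0.14 and 0.12 with BMP4, none of them called. Over the 9 arrays the 6 probe sets correlated pairwise at r = 0.656 to 0.961, as a description. With the 6 averaged, the rise with TGF-β1 was 0.73 ± 0.13 (limma adjusted p = 0.0077), and the difference with BMP4, 0.40 ± 0.13, was not called (limma adjusted p = 0.079). Of the 6, 1422865_at was the only probe set called with BMP4 in the main fit. Probe set 1422864_at was called without the arrays numbered 2 (limma adjusted p = 0.0428) and 1440878_at without TGF-β1 replicate 2 (0.0425). Both of these were also called with the replicate number as a block (limma adjusted p = 0.00404 and 0.00783).

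**Figure D2:**
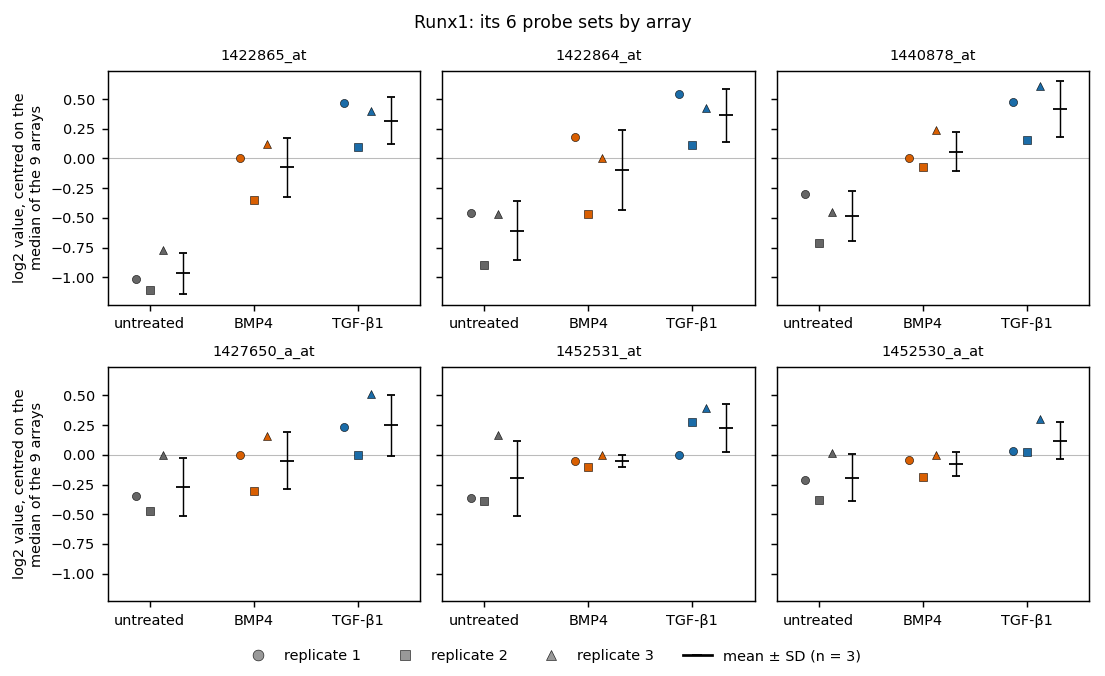
Values of the 6 Runx1 probe sets (log2, centred on the median of the 9 arrays) in each array, with symbols for the replicate number and bars for mean ± SD (n = 3). In 5 of the 6, the array numbered 2 (square) is the lowest of its group in all 3 groups, and the order of the group means, untreated lowest and TGF-β1 highest, is the same in every panel.

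Because Runx1 is a blood lineage gene, markers of macrophages and other blood cells were set beside it. Of 11 measured markers, 0 were called higher and 1 (Cd68) was called lower with TGF-β1 by limma (1 higher and 4 lower at an unadjusted p under 0.05), and 0 were called in either direction with BMP4 (0 and 2). The mean of these markers ran from 0.14 to 0.23 in untreated arrays, from -0.05 to 0.03 with BMP4 and from -0.17 to 0.01 with TGF-β1. The embryonic globins Hbb-y and Hba-x had the largest values in the untreated group (means of 0.55 and 0.84, against -0.18 and -0.21 with BMP4 and -0.23 and -0.22 with TGF-β1), and none was called over all 9 arrays. Without the arrays numbered 2, Hba-x was called lower with BMP4 and with TGF-β1 (limma adjusted p = 0.0328 and 0.0184). Hbb-y was then called lower with TGF-β1 (limma adjusted p = 0.0367) and not with BMP4 (0.0802). Ptprc, the common leukocyte antigen, had means of -0.06 untreated, -0.02 with BMP4 and 0.19 with TGF-β1 and was not called. The call of Cd68 was lost in 3 of the 9 fits with 1 array left out. The part of blood cells in the Runx1 difference was not tested.

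Runx3, which acts with Runx2 in cartilage hypertrophy, was not called in any comparison. Its more variable probe set, 1440275_at, read -0.36, 0 and -0.08 untreated, 0.06, 0.22 and -0.08 with BMP4 and -0.06, 0.08 and 0.18 with TGF-β1, so that all groups overlapped. It differed from untreated by 0.21 ± 0.12 with BMP4 (95% interval -0.05 to 0.47) and by 0.22 ± 0.12 with TGF-β1 (-0.04 to 0.48). The other probe set, 1421467_at, differed by 0.07 and 0.15. The pair correlated at only r = 0.065 over the 9 arrays.

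Mef2c, a transcription factor of muscle and vessels that is also required for cartilage hypertrophy, was lower with TGF-β1 than with BMP4 and did not differ detectably between BMP4 and untreated cultures. Probe set 1424852_at read 0.06, 0.14 and -0.0047 in untreated arrays, 0.13, 0.10 and 0 with BMP4, and -0.20, -0.28 and -0.34 with TGF-β1. All 3 TGF-β1 arrays lay below all other 6. It fell by 0.34 ± 0.08 with TGF-β1 relative to untreated (1.27-fold, limma adjusted p = 0.0359), a call lost without any of 7 of the 9 arrays (limma adjusted p = 0.054 to 0.12; it held without untreated replicate 3 or BMP4 replicate 3). Relative to BMP4 it was lower by 0.35 ± 0.08 (1.28-fold, limma adjusted p = 0.0224), a call lost without BMP4 replicate 1 or 2 or TGF-β1 replicate 2 or 3 (limma adjusted p = 0.088, 0.082, 0.07 and 0.085).

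Probe set 1451507_at of Mef2c read 0.05, 0.17 and -0.09 untreated, 0.15, 0.29 and 0 with BMP4, and -0.21, -0.23 and -0.29 with TGF-β1. Its difference between the factors was -0.39 ± 0.10 (1.31-fold lower with TGF-β1, limma adjusted p = 0.0371), and that call was lost in 6 of the 9 fits with 1 array left out: untreated replicate 1 (limma adjusted p = 0.057), BMP4 replicates 1 and 2 (0.11 and 0.14) or any TGF-β1 array (0.082, 0.093 and 0.12). Over all 5 probe sets the difference of TGF-β1 from untreated ran from -0.37 to -0.21 and that from BMP4 from -0.39 to -0.30, and in 4 of the 5 the TGF-β1 arrays lay below both other groups without overlap. With BMP4 the 5 ran from -0.04 to 0.11 against untreated, and 0 were called by limma. Without the arrays numbered 2, none of the Mef2c calls remained. The TGF-β1 difference of 1424852_at was then -0.30 from untreated (limma adjusted p = 0.22) and -0.34 from BMP4 (0.15). That of 1451507_at was -0.33 from BMP4 (0.17). With the replicate number as a block these calls held (limma adjusted p = 0.0179, 0.0118 and 0.00987 in this order). The block fit also called 1451506_at (0.0154 from untreated and 0.0179 from BMP4), 1451507_at from untreated (0.0453) and 1421028_a_at from BMP4 (0.0224). The most variable of the 5, 1421027_a_at, was not called in any comparison, and its differences with TGF-β1 were -0.21 ± 0.16 from untreated and -0.30 ± 0.16 from BMP4.

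**Figure D3:**
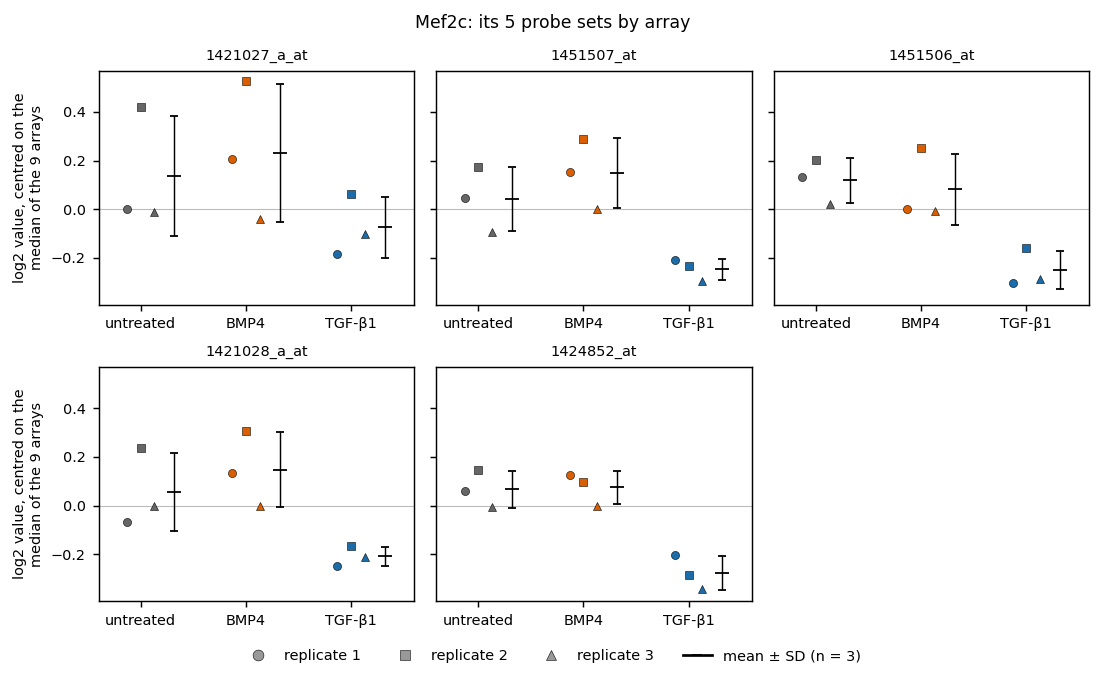
Values of the 5 Mef2c probe sets (log2, centred on the median of the 9 arrays) by array, drawn as for Runx1 (symbols for the replicate number, bars for mean ± SD, n = 3). In 4 panels the 3 TGF-β1 arrays lie below all untreated and BMP4 arrays; in 1421027_a_at they overlap.

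Mef2c also marks muscle and vessel cells, whose markers were measured beside it. Of 10 skeletal muscle markers, 3 (Ttn, Acta1 and Myh3) were called lower and 0 higher with TGF-β1 by limma, against 4.21% and 2.54% of all genes. At an unadjusted p under 0.05 the counts were 8 and 0. The 3 limma calls were lost in 5 (Ttn), 7 (Acta1) and 8 (Myh3) of the 9 fits with 1 array left out. With BMP4, Myf5 was called higher and Ttn lower (the latter lost in 7 of the 9). Between the factors, limma called 1 lower (Myf5, -1.25 ± 0.11) and 0 higher with TGF-β1, against 5.38% and 4.73% of all genes. At an unadjusted p under 0.05 these counts were 4 and 0. The mean of the muscle markers was 0.08 to 0.22 in untreated arrays, 0.02 to 0.07 with BMP4 and -0.22 to -0.14 with TGF-β1. It was thus lowest in the TGF-β1 arrays, as were 4 of the 5 Mef2c probe sets. Of 8 endothelial markers, 0 were called in either direction with TGF-β1 by limma (0 at an unadjusted p under 0.05), and their mean stayed between -0.05 and 0.10 over the 9 arrays. The part of muscle cells in the Mef2c difference was not tested.

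Sp7, the bone-commitment factor downstream of Runx2, had its highest values in the BMP4 cultures. It read 0.04, -0.15 and -0.09 untreated, 0.41, 1.03 and 0.26 with BMP4, and -0.36, 0 and -0.33 with TGF-β1. The 3 BMP4 arrays were the highest of the 9, and the untreated and TGF-β1 arrays overlapped. Sp7 was lower with TGF-β1 than with BMP4 by 0.79 ± 0.18 (1.73-fold, 95% interval of the difference -1.19 to -0.39, limma adjusted p = 0.0264). The call was lost without BMP4 replicate 1, TGF-β1 replicate 1 or TGF-β1 replicate 3 (limma adjusted p = 0.054, 0.093 and 0.10), and with only the arrays of the compared groups (0.059). Against untreated the BMP4 difference, 0.63 ± 0.18 (0.23 to 1.03), was not called (limma adjusted p = 0.0783), but it was called without BMP4 replicate 3 (0.79, limma adjusted p = 0.041) and after quantile normalization (0.57, limma adjusted p = 0.034). It was also called with the replicate number as a block (limma adjusted p = 0.0328). Without BMP4 replicate 2 it was 0.40 and without the arrays numbered 2 it was 0.36, neither called (limma adjusted p = 0.15 for both). The TGF-β1 difference from untreated was -0.16 ± 0.18 (limma adjusted p = 0.686).

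Alpl, the tissue-nonspecific alkaline phosphatase that frees phosphate for mineral, showed the largest gap between the factors. It read -0.45, 0.0035 and 0 in untreated arrays, 0.08, 0.49 and 0.15 with BMP4, and -0.40, -0.59 and -1.37 with TGF-β1. The BMP4 arrays were the highest 3 of the 9, while TGF-β1 replicate 1 lay above untreated replicate 1. Alpl was lower with TGF-β1 than with BMP4 by 1.03 ± 0.23 (2.04-fold, 95% interval of the difference -1.55 to -0.51, limma adjusted p = 0.0268). The call was lost without any of the BMP4 arrays (limma adjusted p = 0.062, 0.10 and 0.057 without replicates 1, 2 and 3) and without the arrays numbered 2 (0.14). Neither difference from untreated was called, at 0.39 ± 0.23 with BMP4 (limma adjusted p = 0.466) and -0.64 ± 0.23 with TGF-β1 (limma adjusted p = 0.176).

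**Figure D4:**
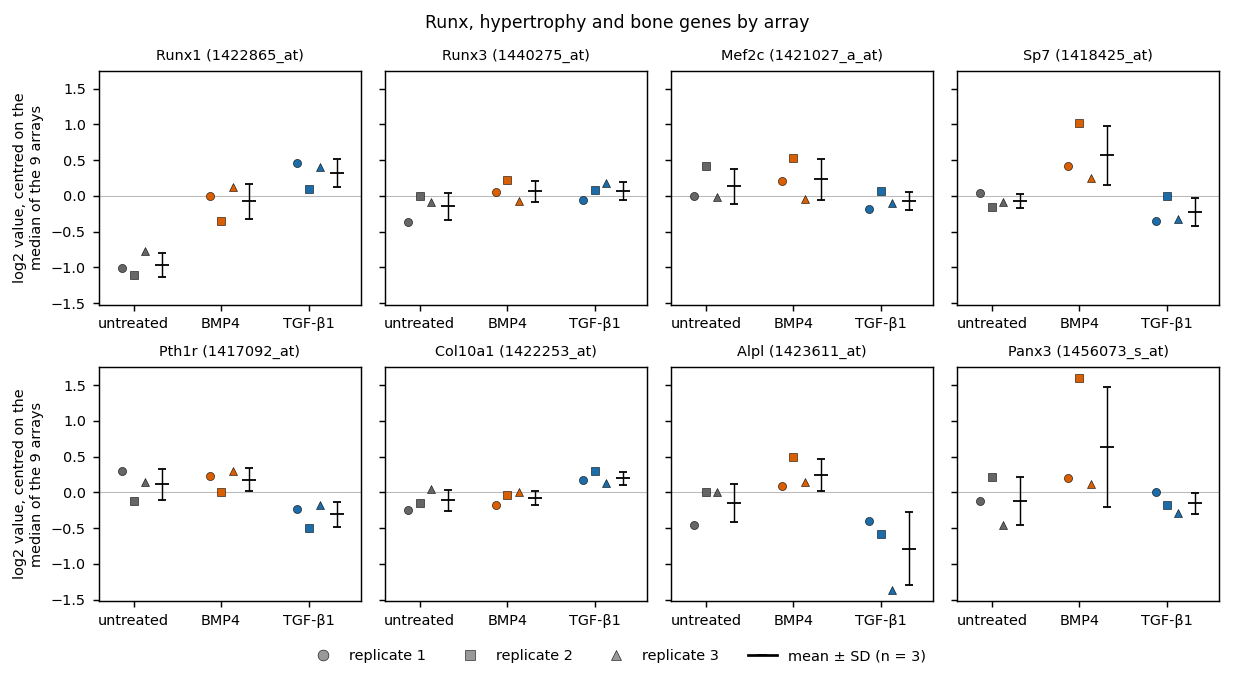
Values of the most variable probe set of each of the 8 genes (log2, centred on the median of the 9 arrays) by array and group, with symbols for the replicate number and bars for mean ± SD (n = 3). Runx1 is lowest in the untreated arrays, the BMP4 arrays are highest for Sp7 and Alpl, and the TGF-β1 arrays are lowest for Pth1r and highest for Col10a1.

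Pth1r, the receptor through which parathyroid hormone-related protein holds cartilage cells back from hypertrophy, read 0.30, -0.12 and 0.15 untreated, 0.23, 0 and 0.30 with BMP4, and -0.24, -0.50 and -0.17 with TGF-β1. The 3 TGF-β1 arrays were the lowest of the 9. Its differences with TGF-β1, -0.41 ± 0.13 from untreated and -0.48 ± 0.13 from BMP4, were not called (limma adjusted p = 0.117 and 0.0579). The difference from BMP4 did pass without untreated replicate 2 (limma adjusted p = 0.035), without the arrays numbered 2 (0.049), after quantile normalization (0.045), with array weights (0.041) and over probe sets with 1 symbol (0.048). With the replicate number as a block both TGF-β1 differences were called (limma adjusted p = 0.0116 from untreated and 0.00387 from BMP4). Between BMP4 and untreated cultures the 95% interval was -0.23 to 0.36.

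Col10a1, the defining collagen of hypertrophic cartilage, read -0.24, -0.15 and 0.05 untreated, -0.18, -0.04 and 0 with BMP4, and 0.17, 0.29 and 0.13 with TGF-β1. Here the TGF-β1 arrays were the highest 3 of the 9. The differences, 0.31 ± 0.10 from untreated and 0.27 ± 0.10 from BMP4, were not called (limma adjusted p = 0.107 and 0.137), and the 95% interval of the BMP4 difference from untreated was -0.17 to 0.25.

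Panx3 was measured by 3 probe sets that behaved differently. Probe set 1456073_s_at read -0.12, 0.22 and -0.45 untreated, 0.20, 1.60 and 0.11 with BMP4, and 0, -0.17 and -0.29 with TGF-β1. BMP4 replicate 2 was far above the other arrays, and the SD of the BMP4 group was 0.84. Its difference with BMP4, 0.76 ± 0.34, was not called (limma adjusted p = 0.292), nor was that between the factors, -0.79 ± 0.34 (limma adjusted p = 0.224). The other probe sets, 1454387_at and 1432860_at, differed by at most 0.06 in size in any comparison. Over the 9 arrays the 3 correlated at r = -0.0314 to 0.308.

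Correlations between genes used the most variable probe set of each. For Mef2c this was 1421027_a_at, which was not called in any comparison, and for Panx3 1456073_s_at. Across the 8 genes, Sp7 and Panx3 had the highest correlation over the 9 arrays (r = 0.852), followed by Mef2c with Panx3 (0.772) and Sp7 with Alpl (0.712). Pth1r and Col10a1 had the lowest (-0.768). These are descriptions over 9 arrays that share groups and replicate numbers, and Panx3, Sp7, Mef2c, Alpl and Runx3 all had their highest value in BMP4 replicate 2. Among 18192 other genes, those most like Runx1 were Slc35e1 (r = 0.983), Ak5 (0.978) and Cald1 (0.974), and those most like Mef2c were Wbp4 (0.979), Dnph1 (0.97) and Hapln1 (0.964). Sp7 was most like Kank1 (0.972), Fbln7 (0.968) and D630045J12Rik (0.968), and Alpl was most like Helb (0.939), Calcrl (0.938) and Pip4p2 (0.933).

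Other genes of the same pathways were counted from lists, with the most variable probe set per gene; over all 18193 genes, 3.45% were called higher and 4.51% lower with BMP4, 2.54% and 4.21% with TGF-β1, and 4.73% and 5.38% between the factors. Of 23 measured partners and regulators of RUNX proteins, 1 rose and 4 fell with BMP4. Msx2, a homeodomain factor and classic BMP target, rose by 1.90 ± 0.30 (limma adjusted p = 0.00568). Twist1 and Twist2, whose proteins restrain Runx2, fell by 0.79 ± 0.09 and 0.62 ± 0.16 (limma adjusted p = 0.00104 and 0.0477), as did the zinc finger protein Zfp521 (-0.55 ± 0.12) and the basic helix-loop-helix factor Bhlhe40 (-0.83 ± 0.13). With 1 array left out, the call of Twist2 was lost in 8 of the 9 fits and that of Zfp521 in 4, whereas those of Msx2, Twist1 and Bhlhe40 were lost in 0. Cbfb, the common partner of the Runx proteins, was not called, at 0.29 ± 0.08 with BMP4 (limma adjusted p = 0.0693) and 0.07 ± 0.08 with TGF-β1.

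With TGF-β1, 3 of the 23 rose and 2 fell. Bhlhe40 rose by 1.28 ± 0.13 (2.42-fold, limma adjusted p = 0.000937), the opposite of its change with BMP4, and the difference between the factors was 2.11 ± 0.13 (limma adjusted p = 2.89e-05). The coactivator Wwtr1 (TAZ) rose by 0.46 ± 0.11, and Smurf1, a ubiquitin ligase that marks Smad and Runx proteins for degradation, rose by 0.45 ± 0.10. Runx1t1 and Tle3, which encode corepressors, fell by 0.76 ± 0.13 and 0.55 ± 0.09. With 1 array left out, the calls of Wwtr1, Smurf1 and Runx1t1 were lost in 8, 5 and 1 of the 9 fits and those of Bhlhe40 and Tle3 in 0. Without the arrays numbered 2, 1 of the 23 was called higher and 0 lower with TGF-β1. Between the factors 3 were higher and 3 lower with TGF-β1, among the latter Msx2 (-1.72 ± 0.30), Tle3 (-0.72 ± 0.09) and Hand2 (-0.54 ± 0.12, lost in 4 of the 9 fits).

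Of 9 other MEF2 factors, class IIa histone deacetylases and the kinases that act on them, limma called 0 with BMP4 (0 higher and 2 lower at an unadjusted p under 0.05). With TGF-β1, Sik3, a kinase that keeps class IIa deacetylases out of the nucleus, fell by 0.66 ± 0.12 (limma adjusted p = 0.0134). Hdac4, the deacetylase that restrains Mef2c and Runx2 in cartilage, was higher with TGF-β1 than with BMP4 by 0.34 ± 0.08 (limma adjusted p = 0.0302), and its difference from untreated, 0.26 ± 0.08, was not called (limma adjusted p = 0.104). The call of Sik3 was lost in 2 and that of Hdac4 in 5 of the 9 fits with 1 array left out, and neither gene was called without the arrays numbered 2 (0 of 9 genes in each comparison).

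Among 25 measured genes of a list of 30 for hypertrophy and mineral, 5 rose and 2 fell with BMP4. Fgfr3 and Ihh, which act in prehypertrophic cartilage, rose by 2.33 ± 0.24 and 2.26 ± 0.17 (limma adjusted p = 0.000605 and 0.00013), and Sost and Tnfrsf11b, secreted inhibitors of bone formation and of osteoclasts, rose by 1.93 ± 0.29 and 1.51 ± 0.27. Ank, a transporter linked to extracellular pyrophosphate, a mineral inhibitor, rose by 0.48 ± 0.09. Phex, an endopeptidase of bone cells, fell by 2.14 ± 0.23 (limma adjusted p = 0.000739), and so did Col1a2 by its most variable probe set (-0.76 ± 0.12). With TGF-β1, Mgp, which encodes an inhibitor of mineral, rose by 1.24 ± 0.13, Ank by 1.05 ± 0.09 and the phosphate transporter Slc20a1 by 0.65 ± 0.11, whereas Phex fell by 1.07 ± 0.23. Between the factors 5 were higher with TGF-β1 and 4 lower, the largest being Fgfr3 (-3.28 ± 0.24) and Ihh (-2.58 ± 0.17). The calls of Ank with BMP4 and of Slc20a1 and Phex with TGF-β1 were lost in 1, 2 and 3 of the 9 fits with 1 array left out, and that of Col1a2 with BMP4 was lost without the arrays numbered 2 (limma adjusted p = 0.0747). Among the uncalled genes, Mmp13 differed by 0.05 ± 0.09 with BMP4 and -0.04 ± 0.09 with TGF-β1, and Ibsp by 0.02 ± 0.12 and -0.16 ± 0.12. Dmp1, a matrix protein of osteocytes, had larger differences with wide errors, 1.02 ± 0.52 with BMP4 and 1.48 ± 0.52 with TGF-β1 (limma adjusted p = 0.367 and 0.155), and both were called without the arrays numbered 2 (0.0064 and 0.00366). Between the factors the same held for Omd (-1.32 ± 0.48, limma adjusted p = 0.146, and 0.00273 without those arrays) and Mmp9 (1.20 ± 0.49, limma adjusted p = 0.2, and 0.00123).

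**Figure D5:**
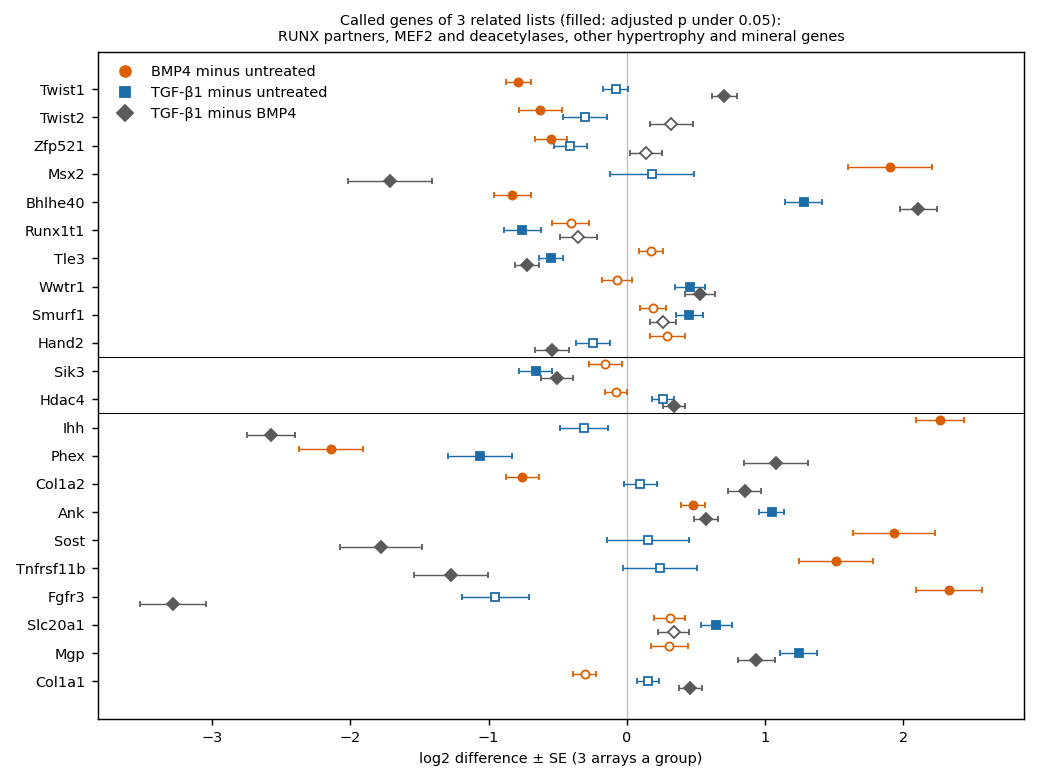
Log2 difference ± SE (3 arrays a group) of every gene of 3 lists that was called in at least 1 comparison, with circles for BMP4 minus untreated, squares for TGF-β1 minus untreated and diamonds for TGF-β1 minus BMP4, filled where the adjusted p was under 0.05. Horizontal lines part the lists; Bhlhe40 lies at -0.83 with BMP4 and 1.28 with TGF-β1, and Ihh and Fgfr3 lie above 2 with BMP4.

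Of 5 other channel genes of the pannexin and connexin families (Panx1, Panx2, Gja1, Gjc1, Gjb2), limma called 0 in any comparison (1 at an unadjusted p under 0.05, Panx1, between the factors at 0.31 ± 0.09). Of 8 sclerotome markers, 4 (Pax1, Uncx, Meox1 and Meox2) fell and 1 (Sox9) rose with BMP4, and limma called 0 with TGF-β1 (1 higher and 1 lower at an unadjusted p under 0.05). The call of Meox2 was lost in 7 and that of Pax1 in 2 of the 9 fits with 1 array left out, and Meox2 was not called without the arrays numbered 2 (limma adjusted p = 0.255). Of 8 neuron markers, 1 (Nefl) fell with each factor (with BMP4 the call was lost in 6 of the 9 fits), of 4 notochord markers 1 (Krt18) fell with BMP4, and of 3 neural crest and glia markers limma called 0 with either factor (0 at an unadjusted p under 0.05).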

How the data were processed

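RNA of 9 cultures (50 ng of total RNA each, amplified in repeated cDNA cycles and labelled with biotin) was hybridized to Affymetrix Mouse 430 2.0 arrays. The authors subtracted background and normalized with RMA in GeneSpring (versions not given in the sources used here), and the deposited values are log2 signals. All 45101 probe sets had a median of 0 over the arrays (tolerance 1e-06; range -3.83 to 4.01), so that no filter on low signal was possible. The 64 control probe sets were left out. No pair of arrays was identical (0 pairs), and groups came from the sample records. Of 45037 probe sets, 34945 carried 1 symbol, 932 several and 9160 none.

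For the differences, limma 3.58.1 was run in R 4.3.3 (3 group means, all 9 arrays, moderated variances with 6 residual and 4.01 prior degrees of freedom, two-sided, Benjamini-Hochberg over all probe sets). The script was tested on simulated data made for the BMP4 comparison with 45037 probe sets: 96% of 100 changes of log2 1 and 100% of 100 of log2 2 were called, with 11 false calls. The simulated noise was independent between arrays, unlike that of the real same-numbered arrays, and changes under log2 1 were not simulated. These shares therefore do not give the rate of detection in the real data. Python 3.11.15 with matplotlib 3.10.9 drew figures and searched promoters.

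The members and the 4 pathway and 7 marker lists were chosen with earlier results of these data known. Named genes were all members, at most 6 called genes per list and comparison by size, and the 3 most like each called member. An exception was the hypertrophy and mineral list with BMP4, where all 7 called genes were named, Ank being the smallest. Uncalled genes given as examples (Cbfb, Mmp13, Ibsp, Dmp1, Omd, Mmp9, Panx1) and the sclerotome and other markers were named after their values were seen. Alternatives were a replicate block, each array left out, only the compared groups, no arrays numbered 2, quantile normalization, median centring, array weights, a robust prior, only probe sets with 1 symbol, the methods' unequal-variance test, and the mean of a gene's probe sets. The number of arrays limits the precision.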

Additional observations from a re-analysis of the deposited data

How the results depend on the processing

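The direction of every called member value was kept under all 19 alternatives per comparison. The numbers of called members (1 with BMP4, 4 with TGF-β1 and 4 between the factors) and of all called probe sets (2449, 1993 and 3110) moved as follows. Replicate numbers were not taken to pair the arrays, because the sources used here do not say that a number marks a repeat of the experiment. Deviations of same-numbered arrays correlated at -0.0485 to 0.502 (8 of 9 pairs over 0.1), and 8 of 9 arrays correlated best with their own number. If the numbers do mark repeats, the main fit leaves a pairing out. With the number as a replicate block, 4, 9 and 11 members and 4069, 4029 and 5252 probe sets were called; the added calls include Sp7 (limma adjusted p = 0.0328) and Runx1 probe sets 1422864_at and 1440878_at (0.00404 and 0.00783) with BMP4, Pth1r with TGF-β1 (0.0116) and, between the factors, Pth1r (0.00387) and 4 Runx1 probe sets (0.0173 for 1422865_at). Without the arrays numbered 2, 2 members were called with BMP4 and 2 between the factors, and 1200, 888 and 1819 probe sets were called. With only the compared groups, 1617 probe sets were called with BMP4 and 1172 with TGF-β1. Quantile normalization gave 3 members with BMP4, and array weights gave 7 between the factors. The methods' unequal-variance test called 2, 6 and 6 members at its unadjusted p under 0.05, of which 0, 1 and 0 changed at least 2-fold, and 0, 0 and 0 after Benjamini-Hochberg (0, 0 and 11 of all probe sets). With 1 array left out, called members ran from 1 to 2 (2 without BMP4 replicate 3 or TGF-β1 replicate 2), from 2 to 5 (2 without untreated replicate 2 or TGF-β1 replicate 1 or 3) and from 0 to 6 (0 without BMP4 replicate 1, 1 without BMP4 replicate 2 or TGF-β1 replicate 3, 2 without TGF-β1 replicate 1 or 2), and all called probe sets from 1431 to 2262, 867 to 2053 and 1877 to 3330. By the most variable probe set of each gene, values that changed sign were small and uncalled. Panx3 with TGF-β1 was 0.14 without the arrays numbered 2 and -0.20 to 0.13 with 1 array left out. Runx3 between the factors was -0.0035 after quantile normalization, -0.014 with array weights and -0.065 to 0.081 with 1 array left out. With BMP4 and 1 array left out, Mef2c (-0.054 to 0.24), Pth1r (-0.047 to 0.16) and Col10a1 (-0.026 to 0.12) changed sign. Other uncalled probe sets of Runx3, Mef2c and Panx3 also changed sign with 1 array left out, such as 1451506_at of Mef2c with BMP4 (-0.12 to 0.0062). The cause was not tested. Signal over background could not be judged in centred values.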
